A study of Mus musculus with 24 samples.

Results

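Environmental enrichment was examined in the hippocampal libraries that carried little choroid plexus RNA. The members were selected on their Ttr level, as the libraries below 300 CPM (counts over each 1e6 counts on genes), where Ttr encodes transthyretin, the most abundant secreted product of the choroid plexus. Libraries 33B and 34B failed the authors' quality control and were set aside, and 12 of the 24 libraries of the series met the rule. The mice were males of 12 weeks per the labels, either WT or homozygous MSK1 KD, in which a point mutation (Asp194Ala) removes the activity of the N-terminal one of the MSK1 kinase domains in every cell. Both lines were on a C57-Bl/6J background and were bred apart as homozygotes, so that line and genotype cannot be told apart. Enriched (EE) mice had lived since before birth in large cages with a running wheel and toys that were changed, whereas standard-housed (SH) mice had lived in smaller cages with a tube but no wheel or toys, and all were experimentally naive. The 3 EE libraries were 31B and 35A (WT) and 9 (MSK1 KD). The 9 SH libraries were 10, 13, 14 and 15 (WT) and 1, 3, 4, 5 and 6 (MSK1 KD). The authors' own comparisons left out all 3 of these EE libraries for poor correlation within their groups and used all 9 of the SH libraries. EE and SH were compared with genotype as a blocking factor.

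Ttr chose the libraries, so its values are given as a description. In the 3 EE libraries, Ttr was at 41.4 CPM in 31B, 33.4 CPM in 35A and 168 CPM in 9. In the 9 SH libraries it lay between 17.04 and 135 CPM with a median of 35.9 CPM, so that library 9 stood highest of the 12. The next libraries outside the limit were 11 (WT SH) at 685 CPM and 7 (MSK1 KD EE) at 905 CPM. The summed level of the choroid plexus list lay between 260 and 499 CPM in EE and between 247 and 470 CPM in SH, so the groups overlapped. Counts on genes ran from 8911999 in library 9 to 56752074 in library 35A, and from 18187696 to 54292242 in SH. A floor of 3 counts stands for 0.0529 to 0.337 CPM, and it covers counting error only because the reads carry no molecular identifiers. The share of fragments outside single genes was 18.6% in 35A, against 14.2% to 16.1% in SH. Markers of the hippocampal subfields were present in both groups, with the dentate granule cell list summing to 644 to 739 CPM in EE and 499 to 743 CPM in SH. The labels do not say which mice shared a litter or a cage, so p-values measure the spread between these libraries. Both WT EE libraries carry a letter in their code and no SH library does, so that whatever the letter marks and the housing cannot be told apart in WT.

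Enrichment combines exercise, social contact and novelty, and in the hippocampus it is known for raising activity-dependent transcription, BDNF signalling and the survival of newborn neurons. MSK1 is a nuclear kinase downstream of BDNF, its receptor TrkB and ERK, and it phosphorylates CREB and histone H3. Chaperones of the endoplasmic reticulum fold secreted and membrane proteins. When such proteins accumulate unfolded, the sensors ATF6 and IRE1, the latter through XBP1, raise the transcription of these chaperones through a promoter sequence called the ER stress response element (ERSE).

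The quasi-likelihood test of edgeR called 1 of 18401 genes (0.00543%). A call needed an adjusted p no larger than 0.05 together with a change of at least 0.38 on the log2 scale in either direction. It was Manf (ENSMUSG00000032575, chr9:106838312-106891979, minus strand, GRCm38), which encodes a neurotrophic factor that resides in the endoplasmic reticulum and is secreted under stress. Manf stood at 32.8 CPM in 31B, 39.4 CPM in 35A and 35.4 CPM in 9. In SH it lay between 22.6 and 27.3 CPM with a median of 25.6 CPM, and every EE library lay above every SH library. EE exceeded SH by 0.53 ± 0.08 on the log2 scale (SE, 3 against 9 libraries, adjusted p = 0.0345). The change was positive in both genotypes, with 0.57 in WT and 0.43 in MSK1 KD. Rbm15b, a gene that overlaps Manf in the GENCODE annotation, had a log2 fold change of 0.21 (adjusted p = 0.295). Dcaf1, Gm37612 and 4930524O07Rik also overlap Manf there and are not described here. The call was not stable to the choice of libraries. The adjusted p of Manf was 0.294 without 35A, 0.0641 without 9 and 0.025 without 31B, while its log2 fold change was 0.43, 0.57 and 0.58. Leaving out SH library 1, 3, 4, 10, 13, 14 or 15 also ended the call, with adjusted p between 0.0533 and 0.107, and leaving out 5 or 6 did not.

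With no threshold on the adjusted p, 1264 genes (6.87%) stood higher in EE at an unadjusted p under 0.05 and 1010 genes (5.49%) stood lower. Over all genes the log2 fold changes had a median of 0.0009. The 3 EE libraries did not contribute evenly. Among the 1264 genes, 35A was the highest of the EE libraries for 47.6% and 9 for 44.6%, whereas 31B was the highest for 7.75%. The Wald test of DESeq2, applied to the same genes with the same terms and thresholds, called 110 genes (0.598%), 65 of them higher (0.353%) and 45 lower (0.245%). DESeq2 gave no adjusted p for 361 of the 18401 genes, so these could not be called. The genes described next were not called by edgeR unless stated, and their values are given as such. An adjusted p is printed for some of them. In the edgeR comparison above, every tested gene other than Manf had an adjusted p above 0.05. For each list the number of members at an unadjusted p under 0.05 is read against 6.87% and 5.49% of all genes. Where a library is left out, the shares higher and lower were 3.89% and 3.83% without 35A. They were 5.05% and 4.16% without library 9, and 6.94% and 5.34% without 31B.

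The heat shock and ER chaperones stood higher in EE. All 18 of its members had a positive log2 fold change, 14 of them at an unadjusted p under 0.05, and the median was 0.40. In 9 of the 18, every EE library lay above every SH library, as in 1.79% of all genes. DESeq2 called 10 of the 18 higher. The summed level of the list was 4011 CPM in 31B, 4461 CPM in 35A and 3876 CPM in 9, above the 3154 to 3756 CPM of the SH libraries.

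Many members of the list work in the ER lumen. Hspa5, which encodes the Hsp70 of the ER known as BiP, stood at 340 CPM in 31B, 419 CPM in 35A and 320 CPM in 9, against 181 to 288 CPM in SH with a median of 253 CPM. The groups did not overlap, and the log2 fold change was 0.62 ± 0.12 (SE, adjusted p = 0.0848). Sdf2l1, which encodes a partner of BiP, was at 11.2, 15.9 and 11.5 CPM in 31B, 35A and 9, and between 5.53 and 9.52 CPM in SH. Pdia4, a protein disulfide isomerase, was at 48.7, 60.7 and 44.4 CPM in the same order, and between 33.1 and 42.9 CPM in SH. Hyou1, a large ER chaperone of the Hsp110 class, was at 162, 169 and 142 CPM against 99.7 to 134 CPM. For all of these the EE libraries lay above the SH libraries. Their log2 fold changes were 0.84 for Sdf2l1, 0.45 for Pdia4 and 0.41 for Hyou1, with adjusted p of 0.114, 0.136 and 0.147. Creld2, a secreted ER protein, overlapped, with 15.7 CPM in 31B and 16.8 CPM in the highest SH library. Hsp90b1, which encodes the ER Hsp90 GRP94, did not overlap, with 218 to 230 CPM in EE against 160 to 214 CPM in SH and a log2 fold change of 0.31.

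Xbp1, which encodes the transcription factor activated by IRE1, was at 69.7 CPM in 31B, 99.6 CPM in 35A and 72.0 CPM in 9, and between 56.6 and 76.0 CPM in SH, so that 35A alone stood outside the SH range. Ddit3, which encodes the pro-apoptotic factor CHOP of prolonged ER stress, was between 20.8 and 22.4 CPM in EE and between 17.9 and 24.9 CPM in SH, with a log2 fold change of 0.04 (adjusted p = 0.878).

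Chaperones of the cytosol are regulated by the heat shock factor HSF1. Hspa1b, an inducible Hsp70, stood at 21.6 CPM in 31B, 26.4 CPM in 35A and 14.9 CPM in 9. In SH it lay between 8.55 and 15.1 CPM, so library 9 fell within the SH range, and the log2 fold change was 0.86 ± 0.16 (SE, adjusted p = 0.0848). Hspa1b and Hspa1a are near-identical copies, and the split of reads between them is uncertain. Hsph1, an Hsp110, stood at 401, 468 and 356 CPM against 279 to 327 CPM in SH with no overlap. Hspb1, a small heat shock protein, was at 6.00, 8.61 and 7.09 CPM against 2.48 to 5.01 CPM, also with no overlap. Their log2 fold changes were 0.38 and 0.92. The constitutive Hspa8 and Hsp90aa1 had log2 fold changes of 0.14 (adjusted p = 0.424) and 0.08 (adjusted p = 0.733).

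**Figure D1:**
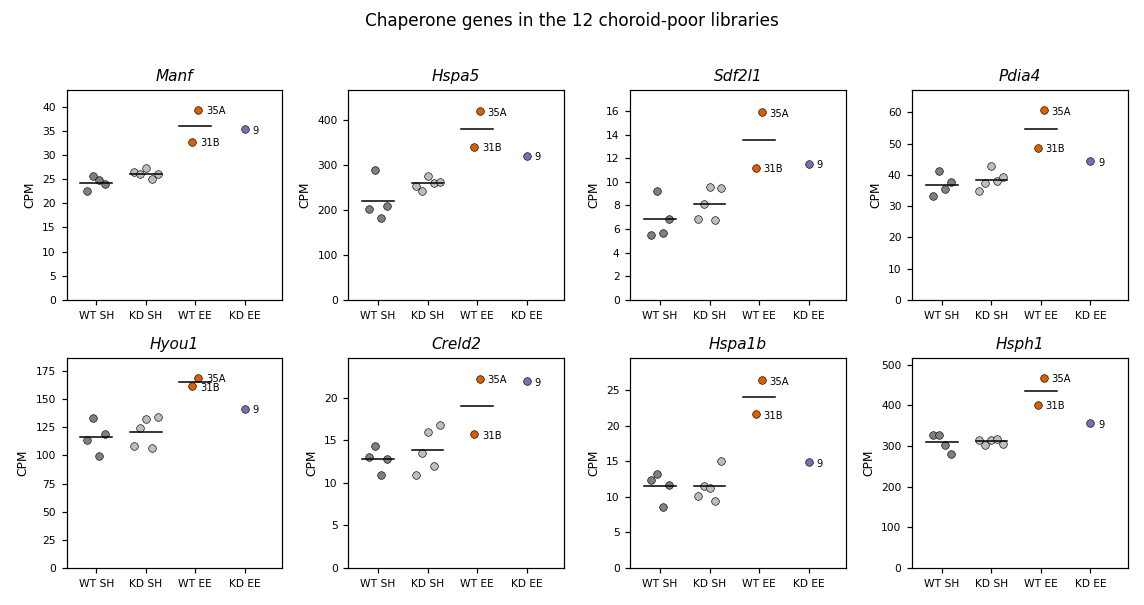
CPM (y axis, from 0) of 8 chaperone genes in each of the 12 libraries, by group (x axis), with group means as lines and the EE libraries named. For Manf, Hspa5, Sdf2l1, Pdia4, Hyou1 and Hsph1 the 3 EE points lie above every SH point, and for Creld2 and Hspa1b 1 EE point lies within the SH range.

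The number of chaperones changed with the libraries. Without 35A, 11 of the 18 members were at an unadjusted p under 0.05 on the higher side, where 3.89% of all genes did, and the median was 0.29. Without 9 the number was 15 with a median of 0.50, and without 31B it was 15 with a median of 0.41. In WT (2 against 4 libraries) the median of the list was 0.50, and 15 of the 18 were at an unadjusted p under 0.05, as were 9.25% of all genes. In MSK1 KD (library 9 against 5) the median was 0.24, and 3 of the 18 were, against 10% of all genes. No member passed the test of the difference between the genotypes, with an adjusted p of 0.641 for Hspa1b, 0.676 for Hspa5 and 0.935 for Manf.

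The promoters of 14 of the 18 members were matched in RefSeq (GRCm38.p6), and the 250 bases before each start were searched for ERSE, which is CCAAT and CCACG separated by 9 bases of any kind, on both strands. This motif was chosen after the values were seen. It is known from ER chaperones, which the list holds by design, so finding it there says nothing about EE. It was found in 3 of the 14, Hspa5, Hsp90b1 and Creld2, and in 0.113% of the 32851 promoters of the reference. These 3 are shown because they carry the motif, which is in capitals. The windows are chr2:34771840-34772089 (plus strand) for Hspa5, chr10:86705445-86705694 (minus strand) for Hsp90b1, and chr15:88819396-88819645 (plus strand) for Creld2. Hsp90b1 holds a copy on each strand, and Creld2 holds its copy on the strand opposite to the gene.
Hspa5: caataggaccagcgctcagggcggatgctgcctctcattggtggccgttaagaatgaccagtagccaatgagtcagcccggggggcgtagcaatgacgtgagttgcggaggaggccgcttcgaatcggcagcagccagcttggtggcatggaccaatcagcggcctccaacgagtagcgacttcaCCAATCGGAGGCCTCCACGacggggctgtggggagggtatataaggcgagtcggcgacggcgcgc
Hsp90b1: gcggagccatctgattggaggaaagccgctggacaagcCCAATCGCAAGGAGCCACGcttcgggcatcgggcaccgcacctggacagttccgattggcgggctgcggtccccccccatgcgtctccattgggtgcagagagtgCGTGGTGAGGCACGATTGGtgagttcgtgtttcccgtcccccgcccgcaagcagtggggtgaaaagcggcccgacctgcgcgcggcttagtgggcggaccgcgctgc
Creld2: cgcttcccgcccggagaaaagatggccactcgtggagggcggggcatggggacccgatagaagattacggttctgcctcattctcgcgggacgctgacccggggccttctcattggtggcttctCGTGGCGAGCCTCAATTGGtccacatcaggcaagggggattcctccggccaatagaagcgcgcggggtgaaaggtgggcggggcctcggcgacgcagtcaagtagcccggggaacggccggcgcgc
The CRE of CREB, TGACGTCA, was in 0 of the 14 and in 1.55% of all promoters. The heat shock element bound by HSF1, which is GAA, TTC and GAA with 2 bases of any kind between each, was likewise in 0 of the 14 and in 0.466% of all promoters. It was not among the motifs set beforehand. At such shares 0 of the 14 was the likely outcome for both motifs, so no conclusion is drawn from it. The AP-1 site of Fos and Jun, TGACTCA, was in 3 of the 14 (Hspa5, Bag3 and Ddit3) and in 4.46% of all promoters. Hspa8, Hsp90aa1, Hyou1 and Manf had no entry. A match in these letters is not evidence of binding.

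The genes of ciliated ependyma stood lower in EE. Ependymal cells line the ventricles and move cerebrospinal fluid with motile cilia. Of the 11 ependymal markers tested, 7 were lower at an unadjusted p under 0.05 and 0 were higher, with a median log2 fold change of −0.62. In 3 of the 11, every EE library lay below every SH library, as in 1.52% of all genes, and DESeq2 called 4 of them lower. Ccdc153, a marker of ciliated cells, was at 2.80 CPM in 31B, 2.48 CPM in 35A and 4.10 CPM in 9, and between 4.94 and 7.75 CPM in SH with a median of 5.47 CPM. The groups did not overlap, and the log2 fold change was −0.91 ± 0.16 (SE, adjusted p = 0.0848). Enkur, a protein of the ciliary axoneme, was at 2.04, 1.94 and 1.33 CPM in 31B, 35A and 9, against 2.77 to 3.98 CPM in SH. Tmem212 was at 1.61, 1.25 and 1.66 CPM against 1.90 to 3.64 CPM. Both were lower in every EE library, with log2 fold changes of −0.77 and −0.86. Rsph1, a subunit of the radial spoke, overlapped through SH library 5 at 2.58 CPM, whereas the other MSK1 KD SH libraries lay between 4.34 and 4.73 CPM. Foxj1, the master transcription factor of motile cilia, was between 9.26 and 10.5 CPM in EE and between 9.18 and 13.9 CPM in SH, with a log2 fold change of −0.25 (adjusted p = 0.4185).

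The broader list of the ciliary axoneme, dyneins, tektins and cilia-associated proteins, had 17 of 61 members lower at an unadjusted p under 0.05 and 0 higher, with a median of −0.28. Without 35A it was 9 of 61 with a median of −0.18. The median was −0.30 in WT and −0.04 in MSK1 KD for the ciliary list, and −0.63 and −0.20 for the ependymal list. The summed ciliary list was at 419 CPM in 31B, 405 CPM in 35A and 456 CPM in 9, and library 9 lay within the 436 to 493 CPM of SH. The summed ependymal markers were at 32.2 CPM in 31B, 29.8 CPM in 35A and 37.9 CPM in 9, all below the 38.3 to 49.7 CPM of SH. In whole tissue, fewer cells of a type and less RNA per cell cannot be told apart. Without 35A, 5 of the 11 ependymal markers were lower at an unadjusted p under 0.05 and the median was −0.51. Without 9 it was 8 of 11 with a median of −0.63.

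Bbox1, which encodes the last enzyme of carnitine synthesis, is not in the ependymal list but stood second among the lower genes by p. It was at 2.01, 1.94 and 2.33 CPM in 31B, 35A and 9, and between 3.31 and 4.88 CPM in SH, with no overlap. The log2 fold change was −0.93 ± 0.16 (SE, adjusted p = 0.0848). Lrrc36 came next, with 0.664 to 1.05 CPM in EE against 1.26 to 2.19 CPM in SH and a log2 fold change of −1.30.

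Microglia are the resident macrophages of the brain. Of 17 microglial markers tested, 9 were lower at an unadjusted p under 0.05 and 0 were higher, with a median of −0.21. P2ry12, the purinergic receptor of homeostatic microglia, was at 29.8 CPM in 31B, 27.1 CPM in 35A and 25.5 CPM in 9, and between 28.3 and 44.6 CPM in SH. P2ry12 lies within Med12l, on the other strand, whose log2 fold change was −0.03. P2ry12 overlapped through SH library 6, and its log2 fold change was −0.45 ± 0.12 (SE, adjusted p = 0.161). Itgam, the integrin subunit CD11b, was at 26.8, 25.9 and 25.4 CPM against 28.2 to 35.3 CPM with no overlap. Laptm5, a lysosomal protein of blood cells and microglia outside the list, was at 36.2, 30.1 and 27.0 CPM against 39.2 to 45.4 CPM in SH, also with no overlap. Its log2 fold change was −0.43 ± 0.08 (SE, adjusted p = 0.0848). The summed microglial markers lay between 457 and 476 CPM in EE and between 490 and 551 CPM in SH. The number of markers lower at an unadjusted p under 0.05 was 5 without 35A, 4 without 9 and 6 without 31B, and the medians were −0.23, −0.18 and −0.19.

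Other glial lists had smaller medians on the lower side. Of the myelin genes, 5 of 14 were lower at an unadjusted p under 0.05, led by Opalin at −0.46, and the median was −0.13, and without 35A it was 1 of 14. Of the astrocyte markers, 4 of 14 were lower, led by the transcription factor Sox9 at −0.47, and without 9 it was 2 of 14. In the list of neurogenesis and immature neurons, 4 of 20 were lower and 0 were higher, with a median of −0.17, and 2 were lower without 35A and 1 without 31B. Its first member was Sox2, a transcription factor found in neural progenitors, at 33.5, 28.7 and 37.6 CPM in 31B, 35A and 9 and between 39.4 and 46.7 CPM in SH. Which cells held this RNA was not tested. The groups did not overlap, and the log2 fold change was −0.37 ± 0.09 (SE, adjusted p = 0.147). No other member of the list was without overlap. Neurod1, a factor of immature granule neurons, had a log2 fold change of −0.19 (adjusted p = 0.413).

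**Figure D2:**
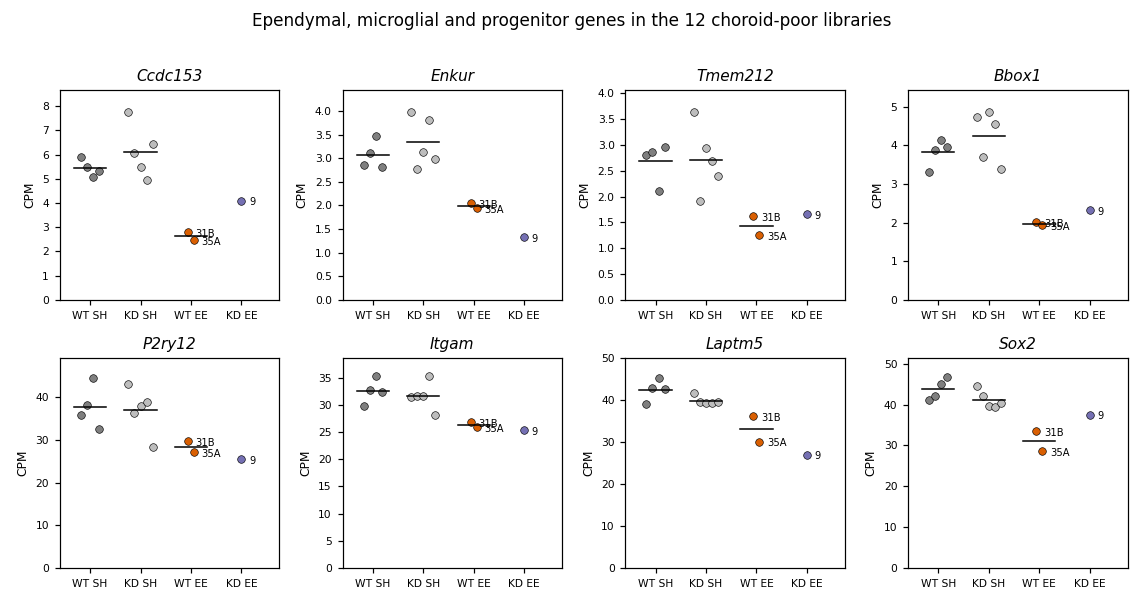
CPM (y axis, from 0) of 8 genes in each of the 12 libraries, namely Sox2 and genes of ependyma, carnitine synthesis and microglia. Groups are on the x axis, with group means as lines and the EE libraries named. The EE points lie below every SH point in each panel except P2ry12, where SH library 6 at 28.3 CPM lies within the EE range.

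Genes that neurons induce on firing were mixed. Of 19 immediate early transcription factors, 5 were higher and 1 lower at an unadjusted p under 0.05, and the median log2 fold change was 0.16. Fosl2, a member of the Fos family, was at 75.0 CPM in 31B, 98.4 CPM in 35A and 59.4 CPM in 9, and between 43.3 and 58.4 CPM in SH with no overlap. Its log2 fold change was 0.50 ± 0.11 (SE, adjusted p = 0.136). Npas4, which drives inhibitory synapses onto active neurons, ran the other way, at 24.3, 17.4 and 21.3 CPM against 21.9 to 32.6 CPM in SH, with a log2 fold change of −0.38 (adjusted p = 0.214). Egr1 was at 174, 257 and 153 CPM and between 150 and 219 CPM in SH, with a log2 fold change of 0.12 (adjusted p = 0.744) that became −0.10 without 35A. The summed list was 890 CPM in 31B, 1107 CPM in 35A and 760 CPM in 9 against 696 to 958 CPM, so 35A alone stood outside. Without 35A the median was −0.02 and 1 member was higher at an unadjusted p under 0.05.

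Among 18 activity-induced effectors, 5 were higher and 0 lower, with a median of 0.11, and 2 were higher without 35A. Vgf, a secreted neuropeptide precursor, was at 247, 266 and 214 CPM in 31B, 35A and 9 against 172 to 207 CPM in SH, with no overlap. It exceeded SH by 0.32 ± 0.08 on the log2 scale (SE, adjusted p = 0.147). Homer1, a postsynaptic scaffold with a short activity-induced form, was at 222 CPM in 35A and at 123 and 109 CPM in 31B and 9, with an SH range of 87.4 to 115 CPM. Its log2 fold change of 0.49 became 0.16 without 35A. Arc, which controls AMPA receptor endocytosis, was at 187, 209 and 180 CPM, within the 102 to 239 CPM of SH, with a log2 fold change of 0.17 (adjusted p = 0.678).

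Feedback regulators of ERK gave 3 of 12 higher and 1 lower. These 3, the phosphatases Dusp5 and Dusp4 and the Ras inhibitor Spred3, had no overlap between EE and SH. Dusp5 was at 20.2, 29.8 and 21.5 CPM in 31B, 35A and 9 and between 11.7 and 20.1 CPM in SH, so its gap to SH in 31B was small. Dusp4 was at 29.7, 30.8 and 27.4 CPM against 15.1 to 26.7 CPM, and Spred3 at 71.2, 74.8 and 72.8 CPM against 53.7 to 69.1 CPM. Their log2 fold changes were 0.57, 0.48 and 0.30, with adjusted p of 0.147, 0.21 and 0.147. Spry4, another Ras–ERK inhibitor, had 0.17 (adjusted p = 0.523).

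In the cascade from BDNF to MSK1 and CREB, 2 of 21 members were higher and 2 lower, and the median was 0.02. Without 35A it was 0 higher and 1 lower. Rps6ka5, which encodes MSK1, was at 24.2 CPM in 31B, 19.1 CPM in 35A and 29.4 CPM in 9, and between 24.2 and 27.9 CPM in SH. The mutation in MSK1 KD leaves the transcript in place, so its level does not check the genotype labels. Its log2 fold change was −0.11 (adjusted p = 0.677) and became 0.02 without 35A. Rps6ka4 (MSK2) had −0.16, Creb1 0.11, Bdnf 0.09 and Ntrk2, the gene of TrkB, 0.02, with adjusted p between 0.485 and 0.948. Bdnf was at 41.4, 46.3 and 33.9 CPM in 31B, 35A and 9 against 33.99 to 41.7 CPM in SH, so 9 lay just below and 35A above the SH range.

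Of 18 AMPA receptor subunits and partners, 2 were lower and 0 higher, namely the auxiliary subunits Cacng4 at −0.34 and Cacng5 at −0.56. Gria1 and Gria2, the main pore subunits, had log2 fold changes of 0.03 (adjusted p = 0.912) and −0.06 (adjusted p = 0.745). Of 7 NMDA receptor subunits, 1 was higher and 1 lower, the latter Grin3a at −0.15 (adjusted p = 0.358). Grin2a stood higher without overlap, with 322 to 541 CPM in EE against 285 to 318 CPM in SH and a log2 fold change of 0.42 (adjusted p = 0.147). Among 10 markers of dentate granule cells, 3 were higher and 0 lower, with a median of −0.003. Pdzd2 was at 75.8, 93.3 and 69.5 CPM against 39.1 to 62.7 CPM, and Trpc6, a cation channel, was at 33.9, 37.99 and 35.6 CPM against 22.4 to 32.8 CPM, both without overlap. Their log2 fold changes were 0.56 ± 0.11 (SE, adjusted p = 0.0848) and 0.48 ± 0.10 (SE, adjusted p = 0.136).

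**Figure D3:**
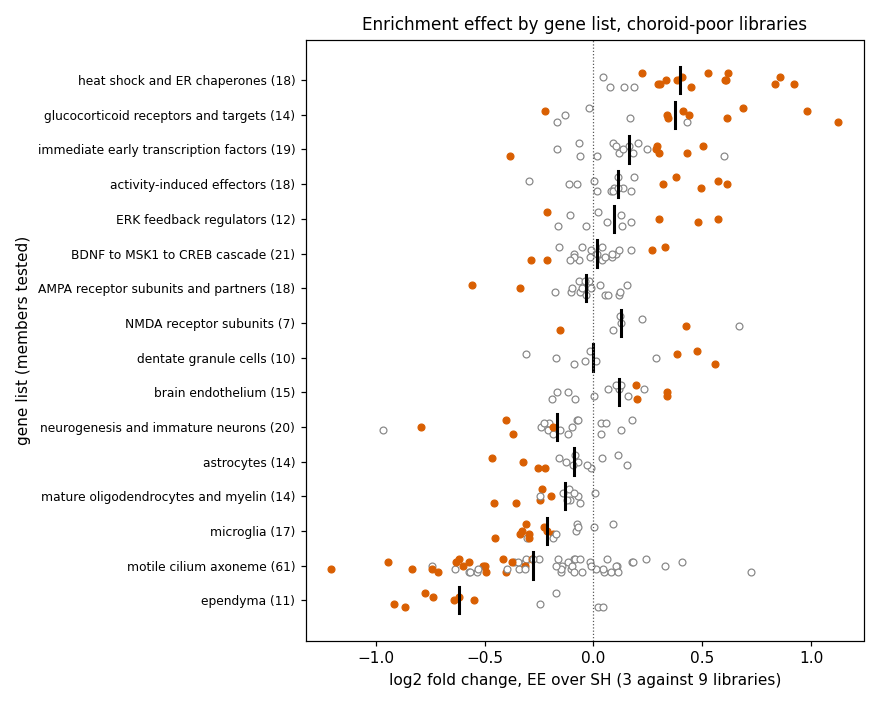
EE over SH on the log2 scale (x axis) for every tested member of 16 gene lists (y axis, number of members in brackets). Filled points are members at an unadjusted p under 0.05, open points are the others, and the black bar is the list median, from 0.40 for the chaperones to −0.62 for ependyma.

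Corticosterone acts on the hippocampus through the glucocorticoid receptor. In the list of glucocorticoid receptors and targets, 8 of 14 were higher and 1 was lower at an unadjusted p under 0.05, and the median was 0.38. Library 35A held the largest values. Sgk1, a kinase induced by the hormone, was at 126.6 CPM in 35A, 55.2 CPM in 31B and 47.3 CPM in 9, and between 43.0 and 51.6 CPM in SH. Plin4, a coat protein of lipid droplets, was at 10.6 CPM in 35A, 3.30 CPM in 31B and 3.55 CPM in 9, and between 1.90 and 4.20 CPM in SH. Tsc22d3, which encodes GILZ, was at 84.0 CPM in 35A, and at 49.2 and 49.9 CPM in 31B and 9, within the 41.5 to 51.7 CPM of SH. Hif3a was at 12.9 CPM in 35A, 6.39 CPM in 31B and 4.99 CPM in 9, against 2.82 to 4.98 CPM in SH, so that library 9 and the highest SH library nearly met.

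The log2 fold changes of Sgk1, Plin4, Tsc22d3 and Hif3a were 0.61, 1.12, 0.44 and 0.98, and those of Sgk1 and Hif3a became 0.08 and 0.47 without 35A. Without that library the list had 2 members higher and 1 lower at an unadjusted p under 0.05, with a median of 0.14. The receptors themselves, Nr3c1 and Nr3c2, had log2 fold changes of −0.13 (adjusted p = 0.468) and −0.22 (adjusted p = 0.271). Per2, a clock gene that glucocorticoids also induce, was at 78.3 CPM in 35A, 40.7 CPM in 31B and 43.3 CPM in 9, and between 28.4 and 41.4 CPM in SH. The time of day at which the tissue was taken is not in the labels.

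**Figure D4:**
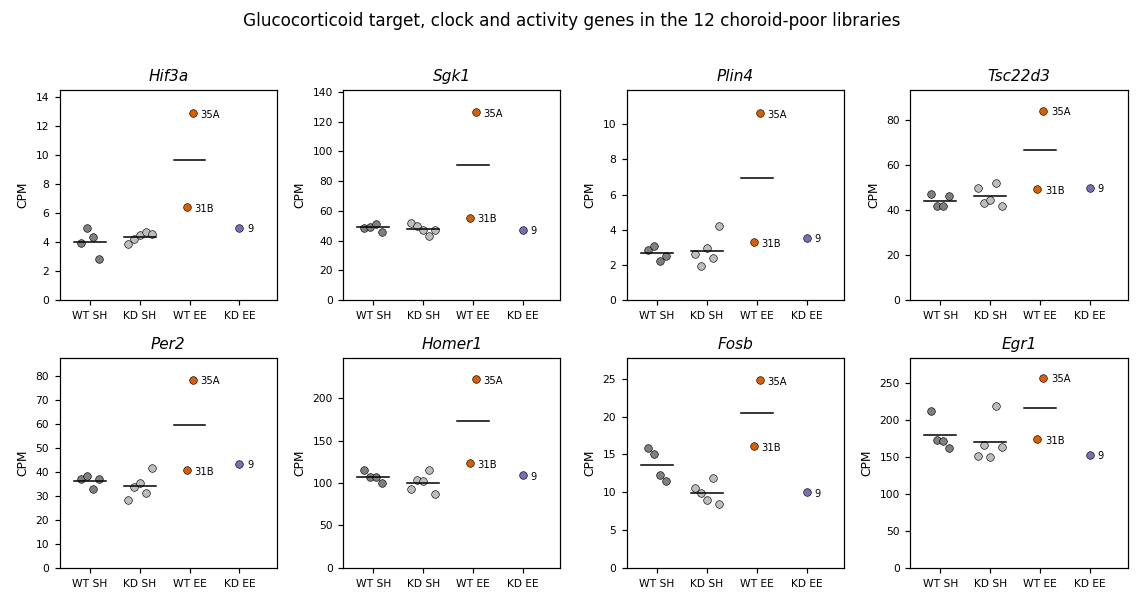
CPM (y axis, from 0) of 8 glucocorticoid target, clock and activity genes in each of the 12 libraries, by group (x axis), with group means as lines and the EE libraries named. Library 35A is the highest of the 12 in each panel, and library 9 lies within the SH range in each panel except Hif3a and Per2.

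A few RNAs stood far higher in 35A than in any other library. Rn7sk, the small nuclear RNA 7SK, which has no poly(A) tail, was at 34.8 CPM in 35A and between 0.215 and 1.65 CPM in the other 11 libraries. Lcn2, which encodes the acute-phase protein lipocalin 2, was at 2.76 CPM in 35A, 0.264 CPM in 31B and 0.443 CPM in 9, and at most 0.127 CPM in SH. The filter of the 12-library comparison removed Lcn2. Whether these values and the larger share of fragments outside genes in 35A bear on the list values was not tested.

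Other genes with low p on the higher side were the nucleolar protein Rbm28, the collagen-binding integrin Itga10 and Ppp2r2cos, an antisense transcript. Rbm28 was at 76.9, 78.1 and 80.6 CPM in 31B, 35A and 9 against 58.4 to 69.8 CPM in SH with no overlap. Itga10 overlapped, with 4.02 CPM in 31B and 4.20 CPM in the highest SH library. Ppp2r2cos was at most 1.22 CPM in any library, and its reads cannot be told apart from those of its sense partner because the counting did not use strand. On the lower side Musk, a receptor kinase of the neuromuscular junction, was at 0.989, 0.986 and 0.443 CPM against 1.29 to 2.24 CPM. Ccdc180 was at 0.843 to 1.29 CPM against 1.63 to 2.47 CPM, and Cdh26, a cadherin, at 0.143 to 0.222 CPM against 0.403 to 0.837 CPM. In these 3 genes every EE library lay below every SH library.

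The remaining lists included housekeeping and nuclear RNA. Of 86 cytosolic ribosomal proteins, 15 were lower and 1 higher at an unadjusted p under 0.05, with a median of −0.12, and 5, 8 and 9 were lower without 35A, 9 and 31B. Of 8 abundant nuclear long noncoding RNAs, 3 were higher and 0 lower, with a median of 0.22. Among them Malat1, which marks nuclear speckles, had a log2 fold change of 0.70 with ranges that overlapped, 899.8 to 1681 CPM in EE and 543.9 to 1059 CPM in SH. Of 12 mitochondrially encoded proteins, 4 were higher and 3 lower, with a median of −0.28, and without 9 it was 0 higher and 1 lower. Markers of brain endothelium had 4 of 15 higher, and 0 of 15 without 35A. Clock genes had 4 of 16 higher and 1 lower, and 1 higher and 1 lower without 35A. Markers of striatum, a neighbour of the dissected tissue, had 3 of 12 lower with a median of −0.41, and 1 of 12 without 35A or without 31B. Their summed level was 190 to 229 CPM in EE and 185 to 379 CPM in SH, where library 14 held the highest value. Members of the interferon and MHC list gave 0 of 17 in either direction.

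Within genotypes, the WT comparison of 31B and 35A with 10, 13, 14 and 15 called 0 of 18401 genes in edgeR, with 1703 genes (9.25%) at an unadjusted p under 0.05. DESeq2 was not run within genotypes. Without 31B, which leaves 35A alone in WT EE, 77 genes were called. In MSK1 KD the only EE library was 9, whose spread was assumed to be that of the others, and 42 genes (0.228%) were called, 40 higher (0.217%) and 2 lower (0.0109%). Of these 42, 29 bear symbols of predicted genes or retrocopies and 3 are mitochondrial. Gm28437, Gm28661 and Gm29216, unprocessed pseudogenes within 1 stretch of chromosome 1, stood at 62.0, 61.4 and 56.6 CPM in library 9 and at most 11.5, 12.9 and 13.7 CPM in the other 11. mt-Co3, a mitochondrially encoded subunit of cytochrome oxidase, was at 49.3 CPM in 9 and between 4.20 and 14.1 CPM in the others. Reads of such copies are shared with near-identical genes, so these values are uncertain, and library 9 was also the shallowest.

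The difference between the effect in MSK1 KD and in WT was called for 15 genes (0.0815%), all higher in MSK1 KD, and they were of the same kinds. With 1 EE library in MSK1 KD, a property of library 9 and an effect of genotype cannot be told apart. Fam78a, whose function is little known, stood second among the higher genes by p and highest in library 9. It was at 6.03, 6.35 and 11.3 CPM in 31B, 35A and 9 against 3.53 to 5.07 CPM in SH, a change of 0.88 ± 0.14 on the log2 scale (SE, adjusted p = 0.0677). Fam78a overlaps Nup214 on the other strand, and the counting did not use strand. Nup214 had a log2 fold change of −0.04 (adjusted p = 0.8705).

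To compare the effect with that where choroid plexus RNA was abundant, the 10 choroid-rich libraries were fitted together with the 12. They were 7 EE libraries (7, 8, 16, 17, 32A, 33A and 36A) and 3 SH libraries (2, 11 and 12), and they share no library with the first comparison. Among 19053 genes, 0 were called in the choroid-rich comparison by edgeR, with 631 (3.31%) higher and 581 (3.05%) lower at an unadjusted p under 0.05. In the same fit the choroid-poor comparison called 6 genes (0.0315%), Fam78a, 3110080E11Rik, Rn7sk, Gm22513 and Lcn2 higher and Laptm5 lower. Manf had an adjusted p of 0.158 there. The difference between the effects called 0 genes, with 944 (4.95%) at an unadjusted p under 0.05 and a lowest adjusted p of 0.791. DESeq2 was not run on this fit.

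The chaperone list had a median of 0.41 in choroid-poor and 0.22 in choroid-rich libraries in this fit, and 0 of its 18 members differed between them at an unadjusted p under 0.05. Manf had a log2 fold change of 0.57 in choroid-poor and 0.22 ± 0.16 (SE) in choroid-rich libraries, a difference of 0.35 ± 0.22 (SE, adjusted p = 0.998). Hsph1 was at 0.40 and 0.29, Trpc6 at 0.48 and 0.33, Dusp5 at 0.64 and 0.54 and Sox2 at −0.37 and −0.31. These 4 genes were picked after their values were seen, and their choroid-rich effects had adjusted p between 0.538 and 0.656. Other genes described above were apart, with Malat1 at 0.77 and −0.11, Per2 at 0.66 and 0.0036, Spred3 at 0.30 and 0.02 and Sox9 at −0.48 and −0.05. The differences of these had adjusted p between 0.921 and 0.982.

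Several lists had medians apart between the comparisons, though no gene was called for the difference. In choroid-poor and choroid-rich libraries the medians were −0.20 and −1.18 for thalamus and −0.42 and 0.23 for red blood cells. They were −0.36 and 0.12 for striatum, and 0.04 and 0.46 for meningeal fibroblasts. In the 12-library comparison the meningeal median was 0.05. Without 35A it was −0.47, with 6 of 14 members lower at an unadjusted p under 0.05. The summed meningeal list was at 224 CPM in 35A, 134 CPM in 31B and 156 CPM in 9, against 126 to 207 CPM in SH. The choroid-rich medians rest on 3 SH libraries, and whether a single library set the thalamic median was not tested. Ependymal and ciliary genes were also apart. The ependymal list had medians of −0.65 and −0.15, and 5 of 11 members had a lower effect in choroid-poor libraries at an unadjusted p under 0.05, where 2.97% of all genes did. The ciliary list had medians of −0.28 and 0.11, and 16 of 61 members had a lower effect. Bbox1 was at −0.98 and 0.04, with a difference of −1.02 ± 0.28 (SE, adjusted p = 0.921). Lowest in p outside the choroid plexus list were Cpn1 and Ttc21a. Cpn1 was at −3.08 and 0.44, from values of at most 0.517 CPM in the 12 libraries. Ttc21a, which overlaps the microglial gene Cx3cr1, was at −0.98 and 0.44. The choroid plexus list itself had a median of 0.99 in choroid-rich libraries. Its member Krt8, a keratin, was at −1.10 and 1.09. Both are given as a description since Ttr formed the classes. Among choroid-rich libraries the median of Ttr was 3796 CPM in EE and 1671 CPM in SH. Housing and choroid plexus content thus differed together there. Whether this bears on the ependymal and ciliary values was not tested.

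**Figure D5:**
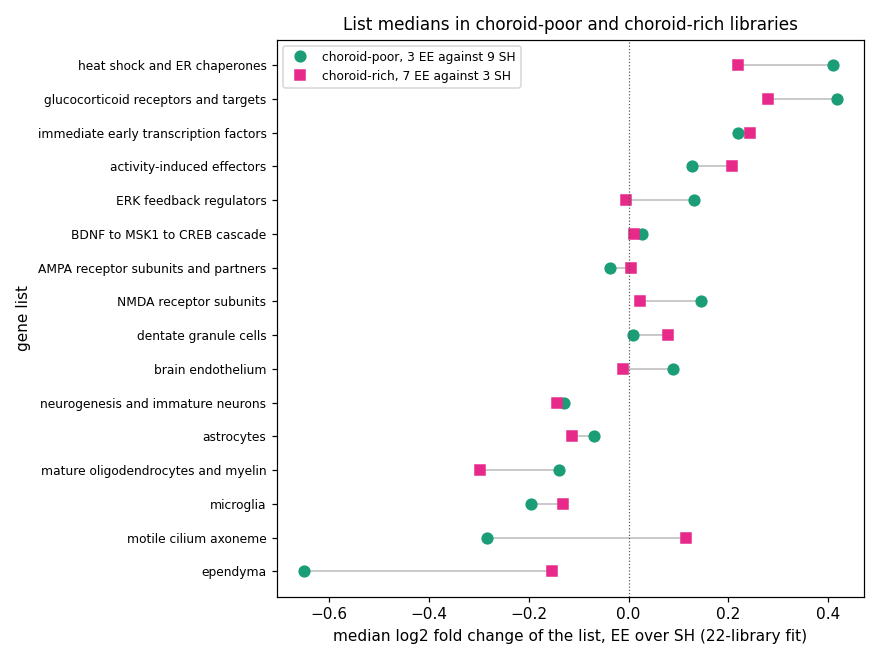
Median effect of EE over SH on the log2 scale (x axis) of 16 gene lists (y axis) in choroid-poor (circles) and choroid-rich (squares) libraries, from the 22-library fit. The chaperones lie to the right in both, at 0.41 and 0.22, and ependyma and the ciliary axoneme lie further left in choroid-poor libraries, at −0.65 against −0.15 and −0.28 against 0.11.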

How the data were processed

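Reads had been trimmed (Skewer), mapped to GRCm38 (STAR 2.5) and assigned to gene symbols (HTSeq, uniquely mapped fragments, strand not used) by the authors. They deposited these raw counts for each of the 24 libraries, without normalization. A deposited table of size-factor-normalized values for 17 libraries was not used here. Counts for 49568 genes, without the lines that name no gene (14.2% to 18.6% of fragments), were analysed with edgeR 4.0.16 under R 4.3.3. Low genes were removed by filterByExpr with housing as the group. In the fit of 22 libraries the groups of this filter were the 4 combinations of housing and Ttr class. The remaining genes were scaled by TMM and fitted by quasi-likelihood with genotype and housing, and p-values were adjusted by Benjamini–Hochberg. A log2 fold change of 0.38 stands for 1.3-fold. DESeq2 1.42.0 was an alternative. A 4-group fit gave the effect in each genotype and its difference, and a fit of 22 libraries gave the difference between choroid classes. CPM are TMM-scaled, except those of Ttr used for the rule. No 2 of the 12 libraries held identical counts. The tests were tried on simulated data. The members and the gene lists were chosen with earlier results of these data known. Genes named were taken from any called gene, the 10 with the lowest p in each direction, up to 4 members of each list with the lowest p, the 5 with the lowest p for each difference, and set genes of the MSK1 pathway. Of these, 4932411E22Rik on the lower side, whose groups overlapped, and Gm45477 and Gm37529 for the choroid difference are not described above. Some list members with low p, such as Nptx2, Vamp2 and Lhfpl3, are not described either. Ddit3, Foxj1, Hspa8, Hsp90aa1, Nr3c1, Nr3c2, Neurod1, Med12l, Rbm15b and Nup214 were named after their values were seen. Gene positions are from GENCODE M21 and promoters from RefSeq.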

Additional observations from a re-analysis of the deposited data

Results flagged for a closer look

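Of 100 tests of a lone library in the 4 WT SH or the 5 MSK1 KD SH libraries, over 50 genes, 8 stood beyond Dixon's 95% limit, and chance gives about 1 in 20. In WT SH, library 14 was alone for Dusp4 (17.2 CPM against 21.9 to 22.9), Rps6ka5 (27.9 CPM against 25.2 to 25.5) and Pdzd2 (62.7 CPM against 53.0 to 54.1). Library 10 was alone for Rn7sk (0.978 CPM against 0.605 to 0.636). In MSK1 KD SH, library 5 was alone for Rsph1 (2.58 CPM against 4.34 to 4.73), Egr1 (219 CPM against 150 to 166) and Creb1 (71.9 CPM against 56.5 to 58.1), and library 1 for Laptm5 (41.7 CPM against 39.4 to 39.6).

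In edgeR the test of the difference between MSK1 KD and WT in the enrichment effect called 15 genes. Library 9, the shallowest, is the single EE library in MSK1 KD, so that its own properties and the genotype cannot be told apart. The differences in log2 fold change were 3.55 for Gm28437, 3.99 for Gm28661, 3.72 for Gm29216, 2.25 for Gm13456, 2.17 for Gm4202, 2.78 for Gm13340, 2.05 for Gm6560, 3.25 for Gm10925, 2.23 for Gm12892, 3.54 for Gm28439, 1.52 for Gm13509 and 1.47 for Rpl3-ps1. For the mitochondrial genes they were 3.18 for mt-Co3, 3.57 for mt-Co2 and 3.21 for mt-Atp6. Adjusted p ran from 0.00172 to 0.0294, and reads shared with near-identical copies make these values uncertain.

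Fragments outside single genes, which enter no comparison, made up 18.6% in library 35A, above the highest SH library at 16.1%.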

How the results depend on the processing

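With 1 gene called in the main comparison, other settings gave 110 (DESeq2 Wald test), 300 (no low-count filter), 48 (depth as a covariate), 40 (library 9 as the only EE library), 16 (WT only), 7 (Ttr limit of 1000 CPM), 6 (22-library fit, chosen after seeing the data), 5 (no genotype term) and 0 (Ttr limit of 100 CPM, choroid score as a covariate), and 0 to 6 with 1 library left out. Manf kept a log2 fold change of 0.42 to 0.60 under all 25 alternatives and was called in 12. Leaving out 1 library gave 0 to 77 calls in WT, 31 to 45 in MSK1 KD and 1 to 18 for the genotype difference, and at least 10 counts in every library gave 27 in MSK1 KD. The 77 came without 31B. The difference between choroid classes called 0 throughout. With library 9 as the only EE library, the sign turned for Egr1 (−0.16), Rps6ka5 (0.16), Ntrk2 (−0.032), Bdnf (−0.15), Gria2 (0.0069), Sgk1 (−0.029) and Rn7sk (−1.34). With 1 library left out, the log2 fold change ranged from −0.10 to 0.27 for Egr1, −0.27 to 0.024 for Rps6ka5, −0.036 to 0.044 for Ntrk2 and −0.0039 to 0.20 for Bdnf, the sign turning without 35A and, for Ntrk2 (−0.0001), also without 10. The causes were not tested. No paired analysis was possible because the groups share no replicate numbers. With 3 EE libraries, 1 of them at 8911999 counts, small changes of low genes were not detectable.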
